A study of Mus musculus with 6 samples.

Results

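The smooth muscle contractile genes are 36 genes whose products form, regulate or anchor the force-generating apparatus of smooth muscle. They were found by symbol among the 56748 genes of the deposited tables. All 36 were present, and all 36 passed the filter on low counts that left 16737 genes to be tested. The RNA came from mouse uterus at day 4 of pregnancy, at 1600 h. There were 3 control libraries, labelled as wild type, and 3 libraries labelled as a conditional knockout (cKO) of Zip10, the zinc importer encoded by Slc39a10, and the series describes the deletion as specific to the uterus. The driver of the deletion, the strain, the age and any pooling of animals are not stated in the labels or the series text. Nor do the labels tie each library to an animal of its own. P-values therefore reflect only the variation among these samples, which may be technical.

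Smooth muscle contracts when calcium switches on myosin light chain kinase, which phosphorylates the light chains of the myosin filament and lets it pull on actin. Myosin phosphatase reverses this step. The filaments are anchored to dense bodies inside the cell and to dense plaques at the membrane, and most genes of the apparatus are driven by serum response factor together with myocardin. In the uterus these cells make up the myometrium, the outer muscle wall, and also surround blood vessels, and progesterone is known for keeping the myometrium quiescent.

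The series design speaks of endometrium, whereas the sample labels name the uterus. Smooth muscle RNA was present in every library. Myh11, the smooth muscle myosin heavy chain, was at 170 to 364 TPM in controls and 463 to 519 TPM in cKO libraries, where TPM is a level per transcript length. The 10 stromal, 10 epithelial and 7 endothelial marker genes also passed the filter on low counts. Myh1 and Myh4, the myosin heavy chains of fast skeletal fibres, were listed at 0 in all 6 libraries. Other striated muscle genes were detected, so these 2 do not stand for all of them. Tnnt3 was at 7.56 to 10.6 TPM in controls and 7.9 to 13.7 TPM in cKO libraries. Tnni2 was at 10.8 to 23.2 TPM in controls and 13.8 to 20.6 TPM in cKO libraries. In bulk tissue, fewer cells of a type and less RNA per cell cannot be told apart.

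Total gene counts ran from 19643069 to 22809574 per library, so depth was similar, and the members had 93 counts or more in every library. In multidimensional scaling of all genes, cKO library 1 lay far from the others on dimension 1, at -1.58 against -0.02 to 0.77, and its share of mitochondrial counts was 3.43% against 4.50% to 4.84%. For the smooth muscle genes control 3 stood apart from the other controls as well, so results are also given without each of these libraries. Slc39a10 itself did not separate the groups, at 54.6 to 70.4 CPM (a count scaled to the library's TMM-adjusted total) in controls and 39.5 to 79.8 CPM in cKO libraries. A gene total also counts reads from exons that a deletion leaves in place, so this does not check the labels, and each direction below is that of the libraries labelled Zip10 cKO.

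All 36 genes stood higher in the cKO libraries than in the controls by their fitted fold, against 49.4% of all genes tested. The median log2 fold change of the 36 was 0.51, a fold of 1.42, and that of all genes was -0.00. The folds ran from 1.13 for Srf to 1.88 for Synm. With the quasi-likelihood test of edgeR none of the 36 had an adjusted p under 0.05, and 0% of all genes did, and the adjusted p-values of the members lay between 0.747 and 0.765. At an unadjusted p under 0.05 there were 18 members, all higher, and 4.48% of all genes were higher at that p. In either direction 1081 of the 16737 genes passed it. DESeq2 called 2 members, Myh11 and Synm, against 0.145% of genes called as higher, and edgeR's likelihood ratio test called Synm alone against 0.149%. With limma-voom 0 members were called, and 17 had an unadjusted p under 0.05, as did 1066 of 16737 genes in either direction.

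For 12 of the 36 genes the 3 cKO libraries all lay above the 3 controls, against 6.93% of all genes, and for none did they all lie below, against 5.78%. The 12 were Myh11, Ppp1r14a, Synm, Flna, Synpo2, Svil, Itga8, Tns1, Pgm5, Dmd, Jph2 and Srf. The other 24 overlapped. Without control 3 the cKO libraries lay above the remaining controls for 34 members, against 11.7% of all genes. In that run 31 members, all higher, had an unadjusted p under 0.05, and 4.22% of all genes were higher at that p. Without cKO library 3 the cKO libraries lay above the controls for 23 members, against 13.7% of all genes. With fewer libraries more genes separate, so these counts are read against the share of the same run.

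**Figure D1:**
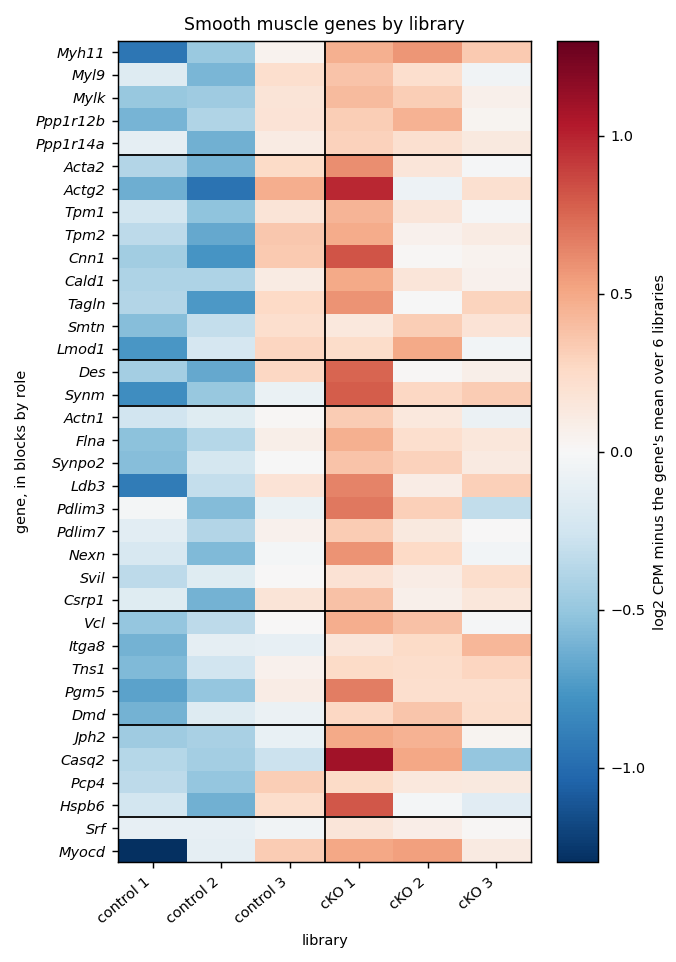
Each row is 1 of the 36 genes, in blocks by role, and each column a library. The colour is log2 CPM (prior count 3) minus the gene's mean over the 6 libraries, so red is above and blue below that mean. Controls 1 and 2 are blue for all 36 genes, whereas control 3 is above its gene means for 27 of them and cKO library 1 for all 36.

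The level of the whole list was read per library as the mean over the 36 genes of log2 CPM minus each gene's own mean. For controls 1, 2 and 3 it was -0.46, -0.44 and 0.12, and for cKO libraries 1, 2 and 3 it was 0.48, 0.22 and 0.08. Control 3 thus lay above cKO library 3, and the group means were -0.26 ± 0.33 and 0.26 ± 0.20 (SD, n = 3 each). Control 3 was the highest control for 35 of 36 genes, where this held for 29.7% of all genes tested. Its median log2 difference from the mean of controls 1 and 2 was 0.56 over the members and -0.01 over all genes. The mean log2 level of the 3 cKO libraries was below control 3 for 8 members, and the median difference was 0.11. cKO library 1 was the highest of all 6 libraries for 26 members, against 24.6% of all genes. The median of the 36 log2 fold changes was 0.69 when control 3 was left out and 0.38 when cKO library 1, control 1 or control 2 was, with all 36 still above 0 in each case. Without control 3 the log2 fold change was more than 1.5 times larger for 14 members, and without cKO library 1 it was more than 1.5 times smaller for 10.

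The genes moved together around these library means. Within a library the 36 values had an SD between 0.16 (control 3) and 0.28 (control 1) on the log2 scale. Across the 36 genes the log2 fold changes had an SD of 0.17, and the median standard error of a fold was 0.20. The standard error includes variation between libraries that the genes share, and the SD between genes does not. The SD and the standard error thus measure different spreads. Each gene's profile over the 6 libraries had a Pearson correlation with the mean of the other 35 between 0.70 for Itga8 and 0.99 for Cald1, with a median of 0.91. These 6 points share the same libraries and their scaling, so the correlations are a description. Its share of all TPM was 1.10%, 1.03% and 1.79% for controls 1, 2 and 3, and it was 2.33%, 1.68% and 1.68% for cKO libraries 1, 2 and 3, so control 3 again lay within the cKO range.

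**Figure D2:**
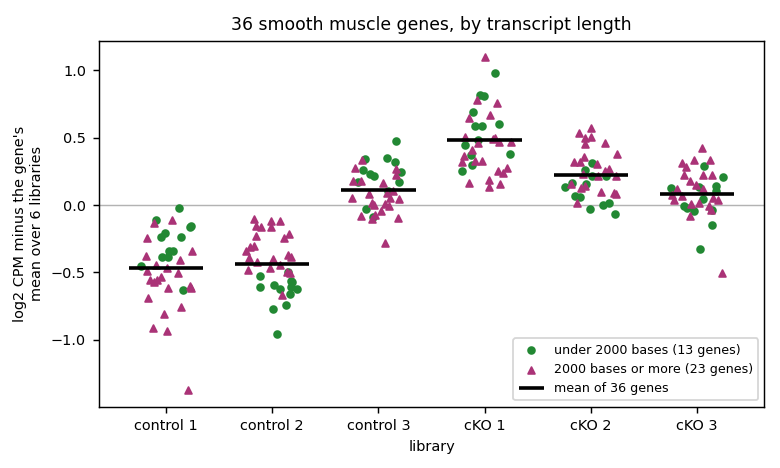
Each point is 1 of the 36 genes in 1 library, as log2 CPM (prior count 3) minus the gene's mean over the 6 libraries, and black bars are the mean of the 36 genes. Genes with transcripts under 2000 bases (circles) lie above longer genes (triangles) in control 1 and below them in control 2. The black bar of control 3, at 0.12, is closer to those of the cKO libraries than to those of the other controls.

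The order of genes within the list differed between libraries, and it went with transcript length. Between controls 1 and 2, whose list means were nearly the same, all 13 members with transcripts under 2000 bases were lower in control 2, and 20 of the 23 longer members were higher. The median log2 difference of control 2 from control 1 was -0.36 for the short members and 0.19 for the long ones. The same contrast over all genes was -0.15 and 0.08. The Pearson correlation with log2 transcript length was 0.74 over the 36 genes and 0.29 over all 16737, where genes of a library are not independent replicates. Short members included Acta2, Actg2, Tagln, Cnn1 and Pcp4, and long members included Myh11, Synm, Tns1 and Dmd.

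Transcript length also moved with the fold between groups. The median log2 fold change was 0.44 for the 13 short and 0.53 for the 23 long members, and over all genes it was -0.08 under and 0.04 over the same split. Of the 12 members whose groups did not overlap, 11 were long, and of all genes whose cKO libraries lay above the controls 83.9% were. When a trend of each library on length was removed, the correlation of fold with log2 length over the 36 genes went from 0.43 to -0.00. The medians became 0.50 for the short and 0.45 for the long members, and all 36 remained above 0. Over the whole list the median was then 0.46, against -0.02 over all genes. In that run 12 members had cKO libraries all above the controls, against 4.87% of all genes.

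By role, the myosin motor and the control of its light chain came first. Myh11 was at 898, 1232 and 1774 CPM in controls 1, 2 and 3, and at 2370, 2549 and 2171 CPM in cKO libraries 1, 2 and 3. The lowest cKO library was above the highest control, and control 3 was the closest of the controls. The controls averaged 1301 ± 442 CPM and the cKO libraries 2363 ± 189 CPM (SD, n = 3 each). The log2 fold change was 0.86 ± 0.23 (SE; edgeR adjusted p = 0.747, DESeq2 adjusted p = 0.0470). Mylk, the light chain kinase, was at 1135, 1155 and 1787 CPM in controls and 2121, 1989 and 1670 CPM in cKO libraries, so cKO library 3 fell inside the control range. Its log2 fold change was 0.50 ± 0.19. The regulatory light chain gene Myl9 gave 0.33 ± 0.20 and overlapped between groups. Ppp1r12b, a targeting subunit of myosin phosphatase, gave 0.51 ± 0.21, and Ppp1r14a, an inhibitor of that phosphatase, 0.39 ± 0.17. The folds of the kinase, of the phosphatase subunit and of its inhibitor thus had the same direction.

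The thin filament genes held the most abundant members per length. Acta2, smooth muscle alpha actin, averaged 2561 TPM over the 6 libraries and Tagln, the actin-binding protein transgelin, 1717 TPM. There were 7 members above 1000 TPM, and all had short transcripts: Acta2, Tagln, Myl9, Tpm2, Actg2, Tpm1 and the small peptide gene Pcp4. Acta2 was at 2545, 2178 and 3936 CPM in controls and 5033, 3711 and 3277 CPM in cKO libraries. Control 3 exceeded cKO libraries 2 and 3, and the log2 fold change was 0.47 ± 0.24. Actg2, smooth muscle gamma actin, had the largest standard error of the list. It was at 586, 467 and 1259 CPM in controls and 1793, 865 and 1048 CPM in cKO libraries. Its log2 fold change was 0.68 ± 0.41, or 1.22 without control 3 and 0.31 without cKO library 1. The actin genes are close paralogs, so their values depend on how shared reads were split. Acta2 and Actg2 together held 21% to 24.3% of the list's TPM in controls and 22.2% to 25.9% in cKO libraries.

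None of the 9 thin filament genes had groups that did not overlap, where 6.93% of all genes had cKO libraries all above the controls. Cnn1, the actomyosin inhibitor calponin, gave a log2 fold change of 0.56 ± 0.32, and Tagln 0.54 ± 0.26. Cald1, caldesmon, which also restrains the actomyosin ATPase, gave 0.46 ± 0.18, and was the only 1 of the 9 with an unadjusted p under 0.05 (edgeR unadjusted p = 0.0299). The tropomyosins Tpm1 and Tpm2, which lie along the actin filament, gave 0.38 ± 0.19 and 0.38 ± 0.25. Lmod1, a nucleator of actin filaments, gave 0.42 ± 0.25, and Smtn, the actin-associated smoothelin, 0.39 ± 0.19.

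Synm, synemin, an intermediate filament protein that links desmin filaments to the membrane, had the largest fold of the list. It was at 91.3, 113 and 151 CPM in controls and 275, 193 and 202 CPM in cKO libraries. Every cKO library lay above every control, and the log2 fold change was 0.91 ± 0.21 (edgeR adjusted p = 0.747, DESeq2 adjusted p = 0.0118). Des, desmin, its partner filament, was at 646, 552 and 1057 CPM in controls and 1484, 889 and 925 CPM in cKO libraries. For Des, unlike Synm, control 3 was above cKO libraries 2 and 3, and the log2 fold change was 0.55 ± 0.29. The difference between the folds of Synm and Des was not tested.

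Among the 9 genes of dense bodies and actin crosslinking, 3 had cKO libraries all above the controls, against 6.93% of all genes. Flna, the actin crosslinker filamin A, was at 2005, 2252 and 3072 CPM in controls and 4003, 3380 and 3233 CPM in cKO libraries, a log2 fold change of 0.53 ± 0.17. Synpo2, an actin-bundling protein of dense bodies, gave 0.51 ± 0.15 and Svil, supervillin, which ties actin and myosin to the membrane, 0.33 ± 0.11. Ldb3 and Pdlim3, both PDZ-LIM proteins that bind alpha-actinin, gave 0.66 ± 0.28 and 0.49 ± 0.25, and Pdlim7, of the same family, gave 0.30 ± 0.14. Nexn, an actin-binding protein, gave 0.55 ± 0.19, and Csrp1, a LIM protein of the actin cytoskeleton, 0.37 ± 0.19. Actn1, alpha-actinin itself, gave 0.26 ± 0.13, the smallest fold of the list but for Srf. Ldb3 had the lowest level of the list, with a mean of 2.58 TPM.

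The 5 genes of dense plaques and membrane attachment had the narrowest spread of log2 fold changes of any block, with an SD of 0.08. All 5 had an unadjusted p under 0.05, where 4.48% of all genes were higher at that p, and their log2 fold changes ran from 0.49 to 0.71. For 4 the cKO libraries all lay above the controls, against 6.93% of all genes. All 5 genes are long, and this held for 973 of 10180 genes over the 2000-base split but 187 of 6557 under it. When the trend of each library on length was removed, the 5 log2 fold changes ran from 0.33 for Tns1 to 0.70 for Pgm5. That range is wider than before the removal, so the narrow spread holds for the main fit only. The part of length in this block was not tested. Dmd, dystrophin, which couples actin to the membrane complex of dystroglycan, was at 31.7, 43.4 and 46.3 CPM in controls and 58.8, 62.4 and 57.0 CPM in cKO libraries. The cKO values were close together and all above the controls, with a log2 fold change of 0.55 ± 0.14. Pgm5, aciculin, a partner of dystrophin at adherens junctions, gave 0.71 ± 0.22. Tns1, the focal adhesion protein tensin, was at 278, 349 and 430 CPM in controls and 493, 486 and 503 CPM in cKO libraries, a log2 fold change of 0.49 ± 0.15. Itga8, an integrin alpha chain of mesenchymal and smooth muscle cells, gave 0.55 ± 0.17, and Vcl, vinculin, 0.56 ± 0.17. Vcl overlapped because cKO library 3, at 231 CPM, was just below control 3, at 234 CPM.

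Among the genes of calcium handling and small regulators, 1 of 4 had cKO libraries all above the controls, against 6.93% of all genes. Jph2, junctophilin, which holds the plasma membrane to the calcium store, was at 82.9, 85.6 and 107 CPM in controls and 162, 157 and 118 CPM in cKO libraries, with no overlap and a log2 fold change of 0.66 ± 0.15. Casq2, the calcium-binding protein calsequestrin of the store, was at 7.56, 7.21 and 8.08 CPM in controls and 21.2, 14 and 6.90 CPM in cKO libraries. The controls were nearly equal, and the cKO libraries ran from below all of them to far above. Its log2 fold change of 0.88 ± 0.35 became 0.46 without cKO library 1. It was the only member whose lowest library was a cKO library. Pcp4 gave 0.30 ± 0.20, and its highest library was control 3. Hspb6, a small heat shock protein that acts in relaxation, gave 0.44 ± 0.30, or 0.08 without cKO library 1.

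The transcription factors of the programme differed in level and in spread. Srf was at 82.2, 82.6 and 86.2 CPM in controls and 99.3, 94.1 and 89.6 CPM in cKO libraries. The groups did not overlap, but the log2 fold change of 0.17 ± 0.09 was the smallest of the list. Myocd, myocardin, the coactivator of Srf in smooth muscle, was at 4.09, 9.93 and 13.6 CPM in controls and 15.4, 15.7 and 11.7 CPM in cKO libraries. Control 1 was far below the rest, with 93 counts, and the log2 fold change was 0.63 ± 0.38. Of 8 other genes fixed as cofactors or opponents of Srf, 6 were higher and 2 lower, with a median of 0.07, and 0 passed an adjusted p of 0.05 in edgeR. At an unadjusted p under 0.05 there was 1, Tead1, a factor of the Hippo pathway that also acts on smooth muscle promoters, at 0.40 ± 0.11. Over all genes 4.48% were higher at that p. Mrtfa and Mrtfb, the myocardin-related coactivators, gave 0.08 ± 0.12 and 0.06 ± 0.17.

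The promoters of the members were searched for the CArG box, the sequence bound by Srf. The list was chosen as smooth muscle genes, most of which Srf drives. An excess of boxes therefore does not bear on the values in these libraries. RefSeq start sites of build GRCm38.p6 gave windows from 250 bases before to 50 after the start for 30 of the 36 genes, 37 windows in all. Myh11, Actg2, Tagln, Nexn, Svil and Myocd had no window and were not searched. A CArG box was found in windows of 5 genes, 16.7%, against 1.81% of all 27025 genes with such windows. The box reads the same way on both strands, so 1 search covers both. Their log2 fold changes had a median of 0.55, against 0.49 for the other 25 with a window, and their ranges overlapped. The windows that hold it are printed 5′ to 3′ on the gene's strand, with the box in capitals. Srf carries 2 boxes in its own promoter, the first beginning 82 and the second 62 bases before the start.
Srf (chr17:46556113-46556412, minus strand): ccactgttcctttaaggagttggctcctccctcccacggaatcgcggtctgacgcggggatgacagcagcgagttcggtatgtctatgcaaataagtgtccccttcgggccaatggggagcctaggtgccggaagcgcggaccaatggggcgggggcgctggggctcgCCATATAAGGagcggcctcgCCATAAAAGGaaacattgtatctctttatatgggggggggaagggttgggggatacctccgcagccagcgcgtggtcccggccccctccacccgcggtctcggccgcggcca
Vcl (chr14:20929148-20929447, plus strand): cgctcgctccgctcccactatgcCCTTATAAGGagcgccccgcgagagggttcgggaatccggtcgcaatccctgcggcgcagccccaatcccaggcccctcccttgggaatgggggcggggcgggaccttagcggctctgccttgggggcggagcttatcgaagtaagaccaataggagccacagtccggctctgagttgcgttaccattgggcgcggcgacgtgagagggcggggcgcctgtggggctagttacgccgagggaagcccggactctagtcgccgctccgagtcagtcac
Myl9 (chr2:156775214-156775513, plus strand): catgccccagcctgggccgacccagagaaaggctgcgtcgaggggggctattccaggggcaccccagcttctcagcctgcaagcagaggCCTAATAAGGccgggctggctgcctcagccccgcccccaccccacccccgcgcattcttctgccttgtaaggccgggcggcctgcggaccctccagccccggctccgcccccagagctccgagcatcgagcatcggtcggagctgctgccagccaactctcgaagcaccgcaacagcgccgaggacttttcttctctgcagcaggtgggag
Ldb3 (chr14:34588558-34588857, minus strand): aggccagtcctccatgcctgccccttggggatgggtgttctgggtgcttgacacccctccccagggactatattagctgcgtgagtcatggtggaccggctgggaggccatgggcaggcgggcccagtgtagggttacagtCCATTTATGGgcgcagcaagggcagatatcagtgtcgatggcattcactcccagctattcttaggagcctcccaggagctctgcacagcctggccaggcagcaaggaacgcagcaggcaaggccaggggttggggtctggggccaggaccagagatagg
Dmd (chrX:82948620-82948919, plus strand): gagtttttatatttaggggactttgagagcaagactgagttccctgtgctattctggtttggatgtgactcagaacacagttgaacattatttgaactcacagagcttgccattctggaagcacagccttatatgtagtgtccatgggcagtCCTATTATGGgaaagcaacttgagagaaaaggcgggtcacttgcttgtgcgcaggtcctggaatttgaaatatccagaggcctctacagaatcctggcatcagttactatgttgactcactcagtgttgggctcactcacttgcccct
In Vcl the box begins 227 bases before the start, in Myl9 161, in Ldb3 109 and in Dmd 98. Ldb3 has a second start site nearby whose window holds the same box. Dmd has a second window at an internal start site, chrX:85048045-85048344, in which these letters were not found. A match is a description of the letters, not evidence of binding, and boxes with a mismatch or farther away were not searched. The shorter muscle motif CATTCC, searched as that and as GGAATG for the other strand, was found in windows of 10 member genes, 27.0% of windows against 14.7% of all windows.

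**Figure D3:**
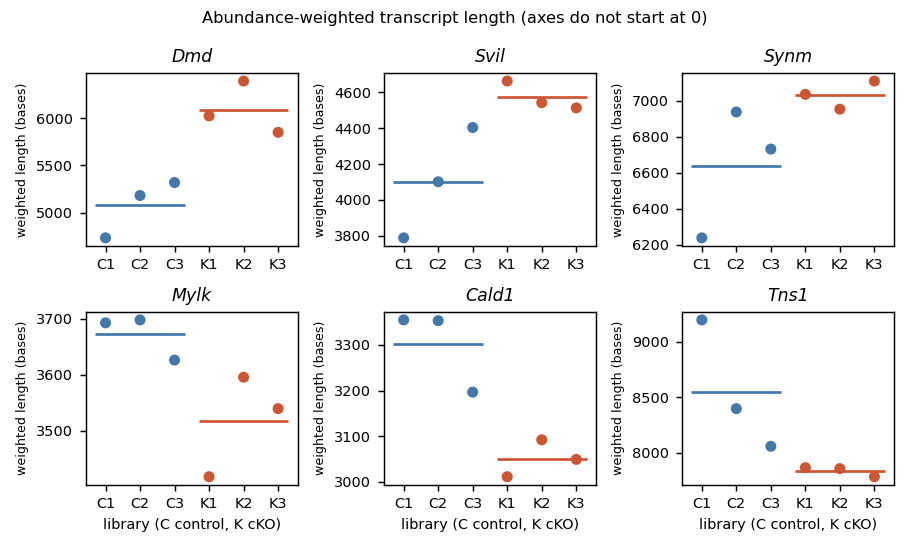
Each panel gives a gene's abundance-weighted transcript length in bases in controls 1 to 3 (C1 to C3) and cKO libraries 1 to 3 (K1 to K3), with horizontal lines at the group means. The axes do not start at 0. Dmd, Svil and Synm are longer in all 3 cKO libraries than in any control, and Mylk, Cald1 and Tns1 are shorter.

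Many of these genes make several transcripts, and the tables give for each gene a transcript length averaged over its transcripts, with their estimated abundance as weights. This readout uses the mix of transcripts and not the level. It varied by more than 1% across libraries for 25 members, and for 6 of them the groups did not overlap, against 13.1% of all genes that varied as much. For Dmd the weighted length was 4732, 5181 and 5319 bases in controls and 6027, 6396 and 5852 bases in cKO libraries. Its group means were 5077 ± 307 and 6092 ± 278 bases (SD, n = 3 each). The transcripts of Dmd that matched GENCODE M21 run from 369 to 14910 bases. Full-length dystrophin is the form of muscle, and shorter forms from internal start sites are made in many other tissues. Because TPM divides by this length, the log2 fold change of Dmd was 0.55 on counts but 0.34 on TPM with a pseudocount of 1.

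Svil was longer in cKO libraries as well, at 4098 ± 308 bases in controls and 4573 ± 79.3 in cKO libraries, and Synm went from 6635 ± 359 to 7032 ± 78.1 bases. Mylk was shorter, at 3672 ± 40 and 3518 ± 90.8 bases. This gene makes a long kinase in non-muscle cells, a shorter one in smooth muscle, and telokin, a short product of its last exons. Cald1, whose long and short forms mark smooth muscle and other cells, was at 3301 ± 90.8 and 3051 ± 40.4 bases, and Tns1 at 8550 ± 584 and 7835 ± 44.7 bases (SD, n = 3 each for these genes). In each of the 6 the exact two-sided permutation test gave p = 0.1, the smallest that 3 against 3 allows, and p = 0.417 after adjustment over the 25 genes. Control 1 was the library farthest from the median for 15 of the 25, against 18.8% of all varying genes. Flna, for example, was at 4064 bases in control 1 and 4907 to 5317 bases in the other 5 libraries, and Myocd at 4985 bases against 2460 to 3366. Without control 2 the lengths of 12 of the 25 did not overlap, against 23.2% of all varying genes, and without cKO library 2 those of 11, against 24.6%.

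**Figure D4:**
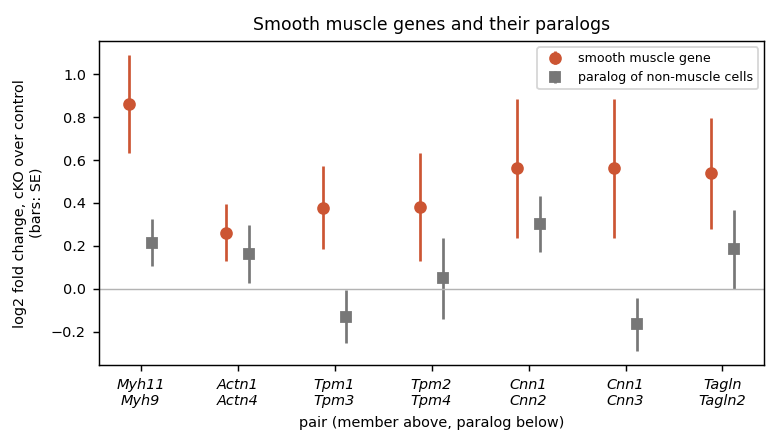
Points are log2 fold changes of cKO over control, with bars of 1 SE, for 7 pairs of genes. Each pair holds a member of the list (circles) and a paralog used by non-muscle cells (squares). The members Actn1, Tpm1 and Tpm2 are themselves expressed by many cell types, and Cnn1 is paired with both Cnn2 and Cnn3. The member lies above its paralog in all 7 pairs, from 0.10 apart for Actn1 and Actn4 to 0.73 for Cnn1 and Cnn3.

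The members were set beside their paralogs of the general cytoskeleton. Of 20 tested genes of that list, 10 were higher and 10 lower in cKO libraries, with a median log2 fold change of 0.02. None passed an adjusted p of 0.05 in edgeR, and 1, Cnn2, had an unadjusted p under 0.05, with 0.30 ± 0.13. The share of all genes that were higher at that unadjusted p was 4.48%. Myh9, the heavy chain of non-muscle myosin, gave 0.22 ± 0.11, Tpm3 -0.13 ± 0.12 and Cnn3 -0.16 ± 0.12. The log2 ratio of Myh11 to Myh9 within a library was 1.04, 1.36 and 1.90 in the controls and 2.04, 2.19 and 2.17 in cKO libraries. This was the only 1 of 7 pairs whose ratio did not overlap between groups. The log2 ratio of Tagln to its paralog Tagln2 was 2.41, 2.5 and 3.13 in the controls and 3.05, 2.80 and 3.42 in cKO libraries, so control 3 lay within the cKO range. The differences between members and paralogs were not tested.

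The 14 members that many cell types express, among them Flna, Vcl, Actn1, Tpm1 and Srf, had log2 fold changes with a median of 0.38, and the 22 more restricted to muscle had one of 0.55. The sum of TPM in the restricted class was 1.51 times higher in cKO libraries (0.722% ± 0.263 of all TPM in controls and 1.09% ± 0.252 in cKO libraries) and that of the broad class 1.38 times (0.588% ± 0.157 and 0.812% ± 0.126, SD, n = 3 each). Which genes belong to each class was set from general knowledge of the genes.

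Other genes of contraction stood on the same side. In the signalling list, which holds regulators of myosin phosphatase, the cyclic GMP arm and calcium store genes, 20 of 21 genes were higher, with a median log2 fold change of 0.21. In edgeR 0 of the 21 passed an adjusted p of 0.05 and 7, all higher, had an unadjusted p under 0.05. Of all genes 4.48% were higher at that unadjusted p. Pde5a, the phosphodiesterase that breaks down cyclic GMP, was at 126, 112 and 134 CPM in controls and 223, 191 and 170 CPM in cKO libraries, a log2 fold change of 0.65 ± 0.13 (edgeR adjusted p = 0.735). DESeq2 called Pde5a, alone among the 21 genes, with an adjusted p of 0.00756. Mrvi1, the substrate through which cyclic GMP kinase acts on the calcium store, gave 0.65 ± 0.17, Prkg1, that kinase, 0.46 ± 0.16, and Ppp1r12a, the main targeting subunit of myosin phosphatase, 0.38 ± 0.12.

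Among partners of dystrophin and of integrin adhesions, 23 of 24 genes were higher, with a median log2 fold change of 0.34. In edgeR 0 passed an adjusted p of 0.05, 12 had an unadjusted p under 0.05, all higher, and 9 had cKO libraries all above the controls. Of all genes 4.48% were higher at that unadjusted p and 6.93% had cKO libraries all above the controls. Flnc, the muscle filamin, was at 190, 206 and 205 CPM in controls and 330, 280 and 251 CPM in cKO libraries, a log2 fold change of 0.52 ± 0.12. Dtna, dystrobrevin, gave 0.63 ± 0.17, Lims2, an adaptor of integrin-linked kinase, 0.49 ± 0.13, and Itga1, a collagen-binding integrin chain, 0.57 ± 0.17. The channel and contraction-associated list had 11 of 12 genes higher and a median of 0.51, with 0 at an adjusted p of 0.05 in edgeR. At an unadjusted p under 0.05 it had 5, all higher, against the same 4.48% of all genes. Its lowest p-values were those of Cacna1c, Kcnn3, Cacnb2 and the oxytocin receptor Oxtr, at 0.81 ± 0.15, 0.85 ± 0.16, 0.75 ± 0.18 and 1.29 ± 0.39. Oxtr was at 9.54, 10.9 and 10.7 CPM in controls and 44.2, 15.6 and 16.2 CPM in cKO libraries. Every cKO library lay above every control, but the size of the fold rests largely on cKO library 1. DESeq2 called 2 of the 12, Kcnn3 with an adjusted p of 0.00305 and Cacna1c with one of 0.00397.

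**Figure D5:**
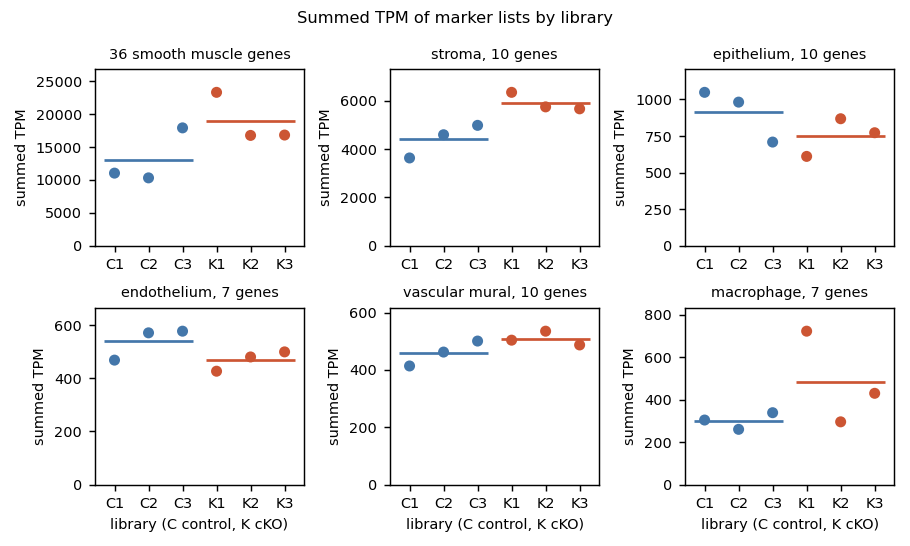
Points are the summed TPM of the 36 smooth muscle genes and of 5 marker lists of other cell types in each library (C1 to C3 controls, K1 to K3 cKO), with lines at the group means and axes from 0. The stromal sum, in which Col3a1 is the largest part, is higher in each cKO library than in each control, though 4 of its 10 genes were lower. The smooth muscle sum of C3 lies above those of K2 and K3. The epithelial sum is lowest in K1 and C3, the libraries with the highest smooth muscle sums.

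Markers of other cell types moved beside the list. The 10 stromal markers summed to 3630 to 4978 TPM in controls and 5662 to 6344 TPM in cKO libraries. Of the 10, Col3a1 held the most TPM in every library, at 1184 to 1585 TPM in controls and 1821 to 2516 TPM in cKO libraries. Of the stromal genes 6 were higher, among them Lum, Col3a1 and Col1a1 at 0.49 ± 0.13, 0.49 ± 0.14 and 0.48 ± 0.15. The 4 lower were Hand2, Hoxa11, Nr2f2 and Hoxa10, at -0.26 ± 0.09, -0.26 ± 0.12, -0.23 ± 0.15 and -0.16 ± 0.12, so the sum does not stand for all stromal genes. The 10 epithelial markers summed to 1049, 982 and 709 TPM in controls 1, 2 and 3 and 611, 868 and 772 TPM in cKO libraries 1, 2 and 3. The 2 libraries with the most smooth muscle TPM, cKO 1 and control 3, were the 2 with the least epithelial TPM. Epithelial genes were lower in 8 of 10, with Cldn3 at -0.57 ± 0.22, Epcam at -0.33 ± 0.14, Cdh1 at -0.34 ± 0.21 and Krt7 the other way at 0.44 ± 0.15. The part of these shifts in the smooth muscle result was not tested.

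The markers of vascular mural cells, which could also carry contractile genes, summed to 414 to 501 TPM in controls and 487 to 535 TPM in cKO libraries and overlapped. Of the 10, 7 were higher with a median log2 fold change of 0.10. Rgs5, a defining pericyte gene, gave 0.03 ± 0.12, Pdgfrb 0.02 ± 0.14 and Notch3 -0.02 ± 0.16, whereas Cspg4 gave 0.44 ± 0.13, Abcc9 0.47 ± 0.15 and Rgs4 0.44 ± 0.15. The 7 endothelial markers were all lower, at 468 to 577 TPM in controls and 426 to 499 TPM in cKO libraries, with Emcn at -0.36 ± 0.12. The 7 macrophage markers were all higher, with a median log2 fold change of 0.61, above the 0.51 of the smooth muscle genes. They summed to 260 to 338 TPM in controls and 295 to 722 TPM in cKO libraries, the highest in cKO library 1, and Mrc1 gave 0.81 ± 0.20. Their part in the smooth muscle result was not tested. The 6 mesothelial markers, of the outer surface of the uterus, summed to 96.4 to 147 TPM in controls and 140 to 145 TPM in cKO libraries. Wt1 held the most of this sum in every library, at 75 to 96 TPM in controls and 92 to 110 TPM in cKO libraries. The sum thus does not stand for each mesothelial marker. Control 3 was the lowest of all 6 in mesothelial TPM. Of the 11 striated muscle genes 5 passed the filter, and Acta1, an actin with sequence close to Acta2, made up most of their sum, at 106 to 196 TPM in controls and 158 to 343 TPM in cKO libraries.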

How the data were processed

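Uterine poly(A) RNA was sequenced in 3 control and 3 Zip10 cKO libraries, grouped by their titles. Tools listed in the submitters' processing notes are fastp 0.23.2, STAR 2.7.10a and RSEM 1.3.3, with the build GRCm39. Which annotation release and strand setting were used is not stated there. The authors deposited RSEM gene tables with expected counts, TPM, FPKM and transcript lengths, per the file headers. RSEM splits reads shared by several genes, so close paralogs such as the actins are uncertain. The deposited TPM values keep no depth, and the deposited FPKM values were not used. Without a stated strand setting, reads from a gene and an overlapping antisense gene cannot be told apart. Symbols came from GENCODE M21 names, which matched 52073 of 56748 gene IDs (91.8%) and all 36 members.

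Expected counts were rounded to whole numbers, filtered with filterByExpr (minimum count 10, minimum total 15), scaled by TMM and compared by the quasi-likelihood test of edgeR 4.0.16 (robust dispersions, R 4.3.3). P-values were adjusted by Benjamini-Hochberg over all 16737 genes kept, two-sided, with a threshold of 0.05. Each SE is the log2 fold change divided by the square root of F. Deviations per library used log2 CPM with a prior of 3 counts. Weighted transcript lengths, as deposited, were compared by an exact permutation test. Members were read from the whole fit, and no p was computed over the list. The members and the other lists were chosen with earlier results of these data known. The genes named were all members, Slc39a10, paralogs used by non-muscle cells, and up to 4 genes of each other list with the smallest p. Myh1, Myh4, Mrtfa, Mrtfb, Rgs5, Pdgfrb, Notch3, Hoxa10, Hoxa11 and Nr2f2 were chosen after their values were seen. Some genes of the lists are counted but not reported here by name.

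Alternatives were DESeq2 1.42.0, limma-voom and limma-trend (limma 3.58.1), the likelihood ratio test, other normalizations and filters, the replicate number as a block and leaving out each library. Removal of the length trend (loess, span 0.5) was added after the data were seen. The test was checked on simulated counts for the 16737 genes of this comparison, with changed genes drawn from those with a mean count of 50 or more. It recovered 22% of genes changed 1.5-fold, 80% of those changed 2-fold, 96% at 4-fold and 98% at 8-fold, with 12 false calls. Genes were simulated independently, without the shifts that genes share within a real library, so these shares may be too high for the real data. Figures were drawn with matplotlib 3.10.9.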

Additional observations from a re-analysis of the deposited data

How the results depend on the processing

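All members kept a fold above 1 under all 20 alternatives in which they were tested. Of 716 member values, 713 kept their side of the threshold and 3 passed it: Myh11 in DESeq2, and Synm in DESeq2 and the likelihood ratio test. The number of genes called over the whole table was 0, but 30 in the likelihood ratio test, 37 in DESeq2, 15 without a filter on low counts, and 0 to 2 with each library left out. Members called were 0, but 1 in the likelihood ratio test and 2 in DESeq2. The median log2 fold change of the members ran from 0.38 to 0.69 with each library left out and was 0.60 on TPM with a pseudocount of 0.1, where the median of all genes was 0.06. The number of members whose cKO libraries all lay above the controls ran from 12 to 34 with each library left out, highest without control 3, and was 17 on TPM. The share of all genes was 9.97% to 13.7% in those runs and 9.52% on TPM, against 6.93% with all libraries. Members whose transcript lengths did not overlap ran from 7 to 12 over the same runs, where 21.4% to 24.6% of all varying genes did not overlap, against 6 members and 13.1% of genes with all libraries. A minimum of 10 CPM in 3 libraries, and leaving out mitochondrial genes and the 20 most abundant genes, each left 34 members to test.

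With the replicate number as a block, the median log2 fold change of the members was 0.53, 0 members and 0 genes were called, and 20 members had an unadjusted p under 0.05. Over all genes 1354 did, against 1081 without the block. The numbers are not stated to pair the samples. The deviations of same-numbered libraries had correlations of 0.09, 0.25 and 0.19, and those of the other combinations ran from -0.33 to 0.12. Only cKO library 1 correlated better with a control of another number, control 3 (0.12). Whether the numbers pair the samples is therefore not known, and the main fit used no block. The cause of each of these changes was not tested, apart from the libraries or genes that an alternative leaves out.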
